A study of Sus scrofa with 2 samples.

Results

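The autophagy genes of the pig antral follicle were described in somatic cells of 2 follicles, AF75 and AF76, from droplet RNA sequencing of single cells (10x Genomics). The set was a list of 36 genes, and a gene was taken where the deposited gene list held its symbol. Of the 36 genes 35 were found, among 22342 genes in all. *ATG9A*, a lipid scramblase of the pathway, was listed by its Ensembl identifier only and was left out of every sum and count. It had 17.5 and 16.6 UMIs per 1000000 UMIs (CPM) in AF75 and AF76.

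Both follicles came from 1 pubertal Landrace × Yorkshire pig of 210 days, treated with pregnant mare serum gonadotropin before its ovaries were collected at a slaughterhouse. They were called healthy, were more than 7 mm wide, and gave 1 library each, labelled follicle 1 (AF75) and follicle 2 (AF76) with no other difference in the labels. The follicular fluid was flushed out, the cumulus cells were freed from the oocyte with hyaluronidase, and 3' ends of transcripts were counted as unique molecular identifiers (UMIs). Barcodes with 2000 to 5000 genes and under 7% mitochondrial UMIs were taken as cells, 9362 of 14289 in AF75 and 7843 of 15548 in AF76. These held 111226504 and 108920601 UMIs, with a median of 11254.5 and 13902 per cell, and 18 cell barcodes occurred in both libraries. The granulosa marker list, with 6 of 8 genes found and 1 of them at 0, summed to 25366 CPM and 26749 CPM in the largest cluster of AF75 and AF76. There 8 theca or stromal markers summed to 387 CPM and 563 CPM. The 10 immune markers, 1 of them at 0, had 15.8 CPM and 18.1 CPM, and 4 oocyte markers, 3 of them at 0, 5.3 CPM and 5.0 CPM. With 1 library per follicle no test between follicles was possible, and the differences below are those of 2 single libraries.

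Autophagy encloses cytoplasm in a double membrane, the autophagosome, which fuses with the lysosome for digestion of its content. The ULK complex starts the process, the class III PI3K complex marks the membrane with a phospholipid, and ubiquitin-like conjugation couples ATG12 to ATG5 and the Atg8 proteins (the LC3 and GABARAP families) to lipid. Cargo receptors such as *SQSTM1* (p62) tie ubiquitinated cargo to Atg8 proteins, and granulosa cells are known to use the pathway both in follicle growth and in atresia, the degeneration of a follicle. Transcript levels do not measure the flux through it.

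The 5 Atg8 genes carried more UMIs than any other role in the set, so the end of each coding sequence is shown. Each protein must be cut behind a glycine near its end, by an ATG4 protease, before it can be coupled to lipid. The last 60 coding bases, stop codon included, were read 5' to 3' from the RefSeq annotation of Sscrofa11.1, the build of the deposited counts, and each lay within 1 exon. The codon of that glycine is in capitals.
MAP1LC3A: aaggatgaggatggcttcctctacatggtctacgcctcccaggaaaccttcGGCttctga
MAP1LC3B: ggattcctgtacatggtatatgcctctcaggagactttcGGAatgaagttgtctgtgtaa
GABARAP: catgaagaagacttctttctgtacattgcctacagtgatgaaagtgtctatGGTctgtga
GABARAPL1: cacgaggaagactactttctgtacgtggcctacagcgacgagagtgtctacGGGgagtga
GABARAPL2: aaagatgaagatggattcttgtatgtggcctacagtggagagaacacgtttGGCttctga
They lie at chr17:37959004-37959063 on the plus strand for *MAP1LC3A* and on the minus strand for the others, at chr6:1920987-1921046 for *MAP1LC3B*, chr12:52596559-52596618 for *GABARAP*, chr5:61759426-61759485 for *GABARAPL1* and chr6:12122738-12122797 for *GABARAPL2*. In *MAP1LC3B* 5 codons followed the glycine before the stop, and in the other 4 genes 1 codon did. Over the whole coding sequence, *MAP1LC3A* and *MAP1LC3B* were identical at 73.8% of aligned bases and *GABARAP* and *GABARAPL1* at 76.8%. *GABARAPL2* was nearer to the GABARAP genes (64.7% and 65.2%) than to the LC3 genes (57.0% and 60.1%).

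The 35 genes together took 3937 CPM (UMIs per 1000000 UMIs, summed over cells) of AF75 and 4257 of AF76. Because 3' ends are counted, CPM does not scale with transcript length, but the annotated 3' end can still set the level of a gene. The Atg8 family held 49.9% of these UMIs in AF75 and 53.3% in AF76, the cargo receptors 19.8% and 20.9%, and the lysosome genes 9.06% and 7.35%. The conjugation genes held 7.68% and 7.03%, the ULK complex 7.50% and 5.47%, the class III PI3K complex 4.56% and 4.45%, and the WIPI genes 1.47% and 1.43%.

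*MAP1LC3A* was the most abundant member, at 921 CPM (95% interval 915 to 927) in AF75 and 1138 CPM (1132 to 1145) in AF76. It stood at rank 173 and 148 of all genes by UMIs. *SQSTM1* followed with 639 CPM (635 to 644) and 741 CPM (736 to 746), and *GABARAP* with 474 CPM (470 to 478) and 510 CPM (506 to 514). These intervals cover counting error only, and PCR and differences between follicles lie outside them. Below them in AF75 came *MAP1LC3B* (250 CPM), *GABARAPL2* (210 CPM), *LAMP2* (205 CPM), *RB1CC1* (171 CPM), *LAMP1* (151 CPM) and *GABARAPL1* (110 CPM). In AF76 the levels of these were 248 CPM, 244 CPM, 153 CPM, 117 CPM, 159 CPM and 129 CPM. Their order thus changed between the libraries, with *LAMP1* above *LAMP2* in AF76, while *MAP1LC3B* and *GABARAPL2* of AF76 were close, with intervals of 246 to 251 and 241 to 247 CPM that overlapped.

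Of the kinases and scaffolds that start autophagy, *RB1CC1* (FIP200, the scaffold of the ULK complex) was by far the most abundant. *ATG101*, which steadies the complex together with *ATG13*, had 58.4 and 53.1 CPM, and the kinase genes *ULK1* (25.4 and 25.7 CPM) and *ULK2* (26.9 and 24.4 CPM) were close to each other. *ATG13* had 13.9 and 13.1 CPM. In the class III PI3K complex, *UVRAG*, the subunit of the endosomal form, led with 62.1 and 72.4 CPM. *ATG14*, the subunit of the autophagosomal form, had 13.8 and 17.2 CPM, the scaffold *BECN1* 43.0 and 42.2 CPM, and the lipid kinase *PIK3C3* 27.6 and 28.9 CPM. Its regulatory subunit *PIK3R4* had 21.5 and 18.4 CPM and *AMBRA1*, a partner of *BECN1*, 11.5 and 10.2 CPM. *WIPI1* (19.6 and 21.8 CPM) and *WIPI2* (38.4 and 38.9 CPM) encode proteins that read the phospholipid made by this complex. Among conjugation genes *ATG12* led with 91.1 and 103 CPM, while its E1 enzyme *ATG7* had 12.3 and 13.4 CPM and its E2 enzyme *ATG10* 4.94 and 5.89 CPM. *ATG5* (24.6 and 22.5 CPM) and *ATG16L1* (19.4 and 17.2 CPM), the partners of *ATG12*, and *ATG3* (42.4 and 43.2 CPM), the E2 enzyme of the Atg8 proteins, were higher than both enzymes. The ATG4 proteases ran from *ATG4C* (9.67 and 9.69 CPM) over *ATG4B* (26.9 and 23.7 CPM) and *ATG4D* (33.4 and 29.7 CPM) to *ATG4A* (37.9 and 30.6 CPM). Of the receptors beside *SQSTM1*, *OPTN* had 91.1 and 98.2 CPM and *NBR1* 49.0 and 51.7 CPM.

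A pair of members was nearly silent in these libraries. *TFEB*, the transcription factor of lysosome and autophagy genes, had 100 UMIs (0.899 CPM) in AF75 and 152 (1.40 CPM) in AF76. *DAPK2*, a death-associated kinase linked to atresia by the study, had 120 UMIs (1.08 CPM) and 148 (1.36 CPM), in 1.17% (Clopper-Pearson 0.967 to 1.41%) and 1.67% (1.40 to 1.98%) of cells. In cells cut to 5000 UMIs each, 0.514% and 0.750% had a UMI of *DAPK2*. No cell type that must lack *DAPK2* was at hand as a background, so whether these UMIs came from free RNA was not tested. With fewer than 200 UMIs in each library both genes stayed out of the counts of ratios, which therefore cover 33 members.

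**Figure D1:**
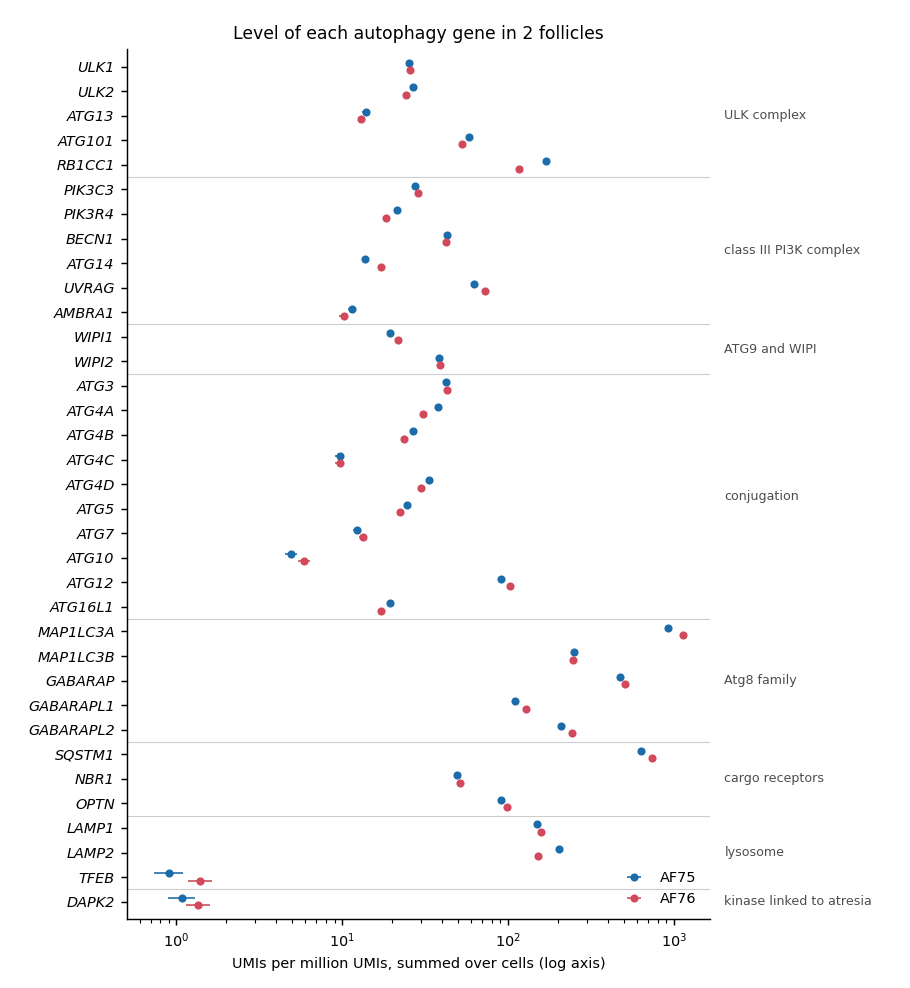
Level of each of the 35 autophagy genes in AF75 (blue) and AF76 (red), as UMIs per 1000000 UMIs summed over the cells of a follicle on a log axis, with 95% exact Poisson intervals (mostly smaller than the points) and genes grouped by role. *MAP1LC3A* reached 921 and 1138 CPM, *TFEB* and *DAPK2* stayed under 2 CPM, and *RB1CC1* and *LAMP2* show the widest gaps between follicles among the abundant members.

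The set as a whole differed little between the follicles. Its sum in AF76 was 1.08 times that in AF75 (1.08 to 1.09, exact conditional interval for counting error), and 1.03 times without *MAP1LC3A*. Of the 33 members with at least 200 UMIs in a follicle, 0 were higher in AF76 by the fold used throughout, a ratio of 5:4 or more, and 2 were lower, at 4:5 (0.8) or less. Among all 10049 genes with that minimum, 5.91% were higher and 8.48% lower by this fold. The median log2 ratio of the members was 0.02 against -0.00188 over all these genes, and the median absolute log2 ratio 0.15 against 0.12.

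The 2 members lower in AF76 were *RB1CC1*, with 171 CPM (168 to 173) in AF75 and 117 CPM (115 to 119) in AF76, a ratio of 0.684 (0.669 to 0.700), and *LAMP2*. *LAMP2*, a lysosomal membrane protein also needed for fusion with autophagosomes, had 205 CPM (202 to 208) and 153 CPM (150 to 155), a ratio of 0.745 (0.730 to 0.760). Its relative *LAMP1* stayed near 1, with a ratio of 1.05. *ATG14* (1.247) and *MAP1LC3A* (1.236) lay just under the fold and *ATG4A* (0.808) just above its inverse of 0.8. *GABARAPL1* (1.17), *UVRAG* (1.17), *GABARAPL2* (1.16) and *SQSTM1* (1.16) were higher in AF76 by less than the fold. All values of one gene come from 1 library per follicle, so the spread between follicles of a kind is unknown.

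The follicles held different mixtures of cells, and fewer cells of a kind with a high level cannot be told apart from a lower level in a sum over all cells. Cells were therefore clustered without the members among the variable genes. Cluster 0 held 5983 cells of AF75 and 5548 of AF76 (63.9% and 70.7%), led by *TGFB3*, *ENPP2* and *IL33*, and cluster 1 held 2731 and 1289 (29.2% and 16.4%), led by *ARPP21*, *SHAS2* and *NAV2*. *VCAN*, the cumulus marker, had 5269 CPM in cluster 1 of AF75 but 1046 CPM in that of AF76, against 596 and 244 CPM in cluster 0. Cluster 2 had 682 cells in AF76 and 1 in AF75, cluster 3, led by the division gene *TOP2A*, 454 and 121 in AF75 and AF76, and cluster 4, led by *ALDH1A2*, 172 and 179. Cluster 5, led by interferon response genes, had 21 and 24 cells and was not compared. The clusters were used by number.

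Within cluster 0 the difference between follicles was smaller. The members summed to 4216 CPM in AF75 against 4340 CPM in AF76, 1.03 times (1.02 to 1.03), and without *MAP1LC3A* to 3102 and 3112 CPM. Of the 33 members 0 were higher in AF76 by the fold and 1 was lower, against 1.9% and 6.88% of 9384 genes. *LAMP2* was that gene, with 163 CPM in AF75 against 128 CPM in AF76, a ratio of 0.784 (0.764 to 0.805). *RB1CC1* had 123 and 109 CPM, a ratio of 0.884. With the follicles clustered without integration, or on 20 components, *LAMP2* no longer passed the fold and the count of lower members was 0. It then had 143 CPM in AF76 against 168 CPM in AF75 without integration, and 134 against 168 CPM on 20 components, the latter just above the limit of 0.8.

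In cluster 1 the follicles differed more. The members summed to 3510 CPM in AF75 against 4131 CPM in AF76, 1.18 times (1.17 to 1.19). Of 32 members with the minimum, 6 were higher in AF76 by the fold and 3 lower, beside 15.2% and 14.3% of 7959 genes. *MAP1LC3A* had 610 CPM in AF75 and 1077 CPM in AF76, a ratio of 1.77 (1.73 to 1.80). *SQSTM1* had 407 and 630 CPM (ratio 1.55), *ATG12* 63.4 and 101.2 CPM (1.59), *UVRAG* 45.2 and 67.5 CPM (1.49), *ATG14* 13.4 and 17.99 CPM (1.34) and *GABARAPL1* 88.9 and 114 CPM (1.28). The lower genes were *RB1CC1*, with 276 and 131 CPM (0.474, 0.453 to 0.495), *LAMP2*, with 287 and 209 CPM (0.728), and the PI3K regulatory subunit *PIK3R4*, with 22.0 and 17.3 CPM (0.787). For these genes other than *ATG14* and *PIK3R4*, cluster 1 of AF76 lay nearer to cluster 0 of its own follicle, as a fold, than cluster 1 of AF75 did.

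The cells called cluster 1 in AF76 depended on the integration of the follicles. Without it cluster 1 held 2221 cells of AF75, with 80.4% of the cells it had before, but 100 cells of AF76, with 5.59% of them. The 6 members above were then also higher in AF76, among 14 in all, and *RB1CC1* and *LAMP2* also lower. No share of all genes is given for that setting, so the 14 cannot be set against one. Marker levels of other cells differed between the follicles in cluster 1 as well. The mural markers *AREG* and *CYB5A* summed to 1320 CPM in AF75 against 4372 CPM in AF76, the red blood cell marker *HBB* had 1.87 against 119 CPM, and 5 endothelial markers, 1 of them at 0, summed to 33.6 against 8.07 CPM. In cluster 0 the mural markers summed to 4205 against 6782 CPM and *HBB* had 2.83 against 32.3 CPM, so these were not particular to cluster 1. The endothelial markers had 10.8 against 11.8 CPM there. The part of these marker differences in those of the members was not tested.

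**Figure D2:**
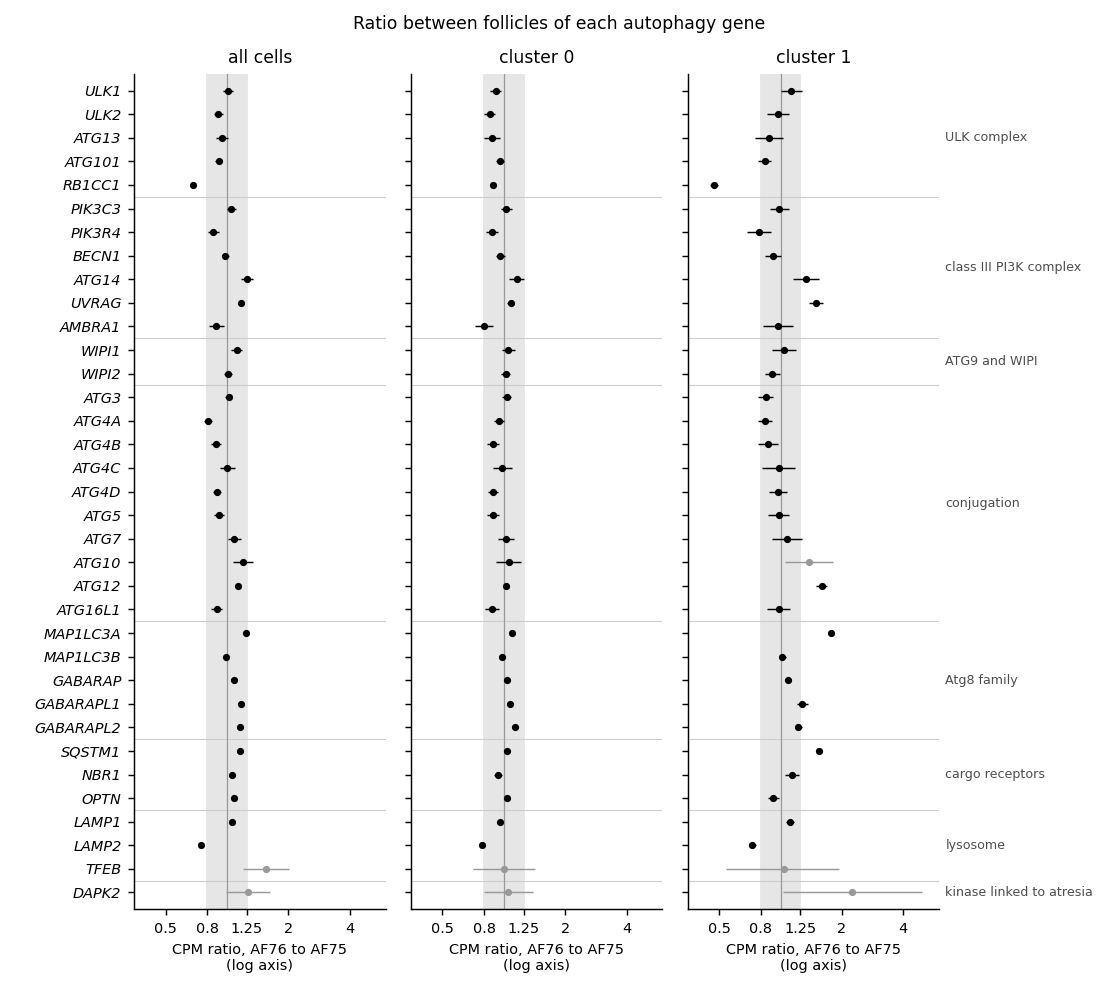
CPM ratio of AF76 to AF75 for each autophagy gene in all cells, cluster 0 and cluster 1, on log axes with 95% exact conditional intervals for counting error. The grey band spans ratios of 4:5 to 5:4, grey points mark genes with fewer than 200 UMIs in both follicles, and the points spread most in cluster 1, from *RB1CC1* at 0.474 to *MAP1LC3A* at 1.77 among the genes with that minimum.

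Per cell, the summed members also varied within a cluster. In cluster 0 the median cell had 4094 CPM of members in AF75, with quartiles of 3466 and 4793, and 4157 CPM in AF76, with quartiles of 3523 and 4933. In cluster 1 the medians were 3394 and 3983 CPM, in cluster 3 they were 3081 and 3575 CPM, and in cluster 4 they were 3376 and 3366 CPM. The quartile ranges of cluster 0 and cluster 1 overlapped in both follicles. A median cell of cluster 0 had 47 UMIs of members in AF75 and 59 in AF76, from 15 and 16 of the 35 genes.

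**Figure D3:**
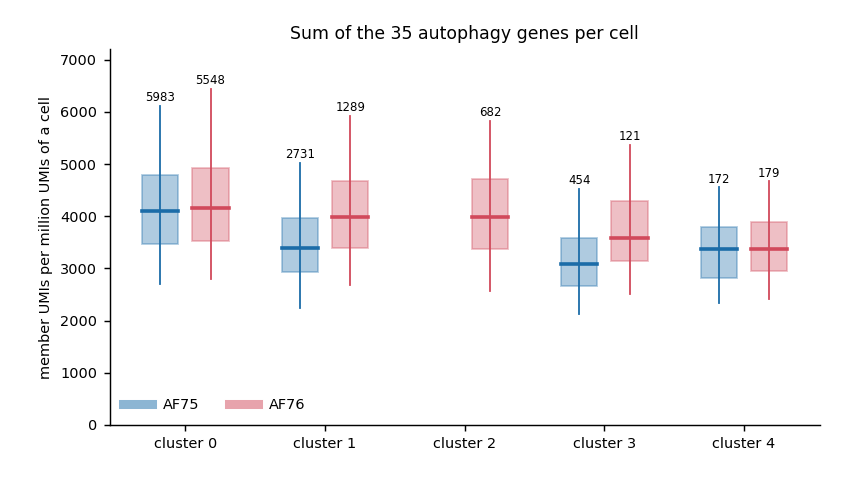
Sum of the 35 autophagy genes per cell, as UMIs per 1000000 UMIs of the cell, in clusters 0 to 4 of AF75 (blue) and AF76 (red). Thick lines are medians, boxes the quartiles, lines the 5th to 95th percentiles of cells, and the numbers above are cells, with the 1 cell of AF75 in cluster 2 not drawn. Medians ran from 3081 CPM in cluster 3 of AF75 to 4157 CPM in cluster 0 of AF76.

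Each other cluster was then set against cluster 0 of the same follicle, which these comparisons share. In cluster 1 the summed members stood at 0.833 (0.827 to 0.838) of cluster 0 in AF75 and 0.952 (0.944 to 0.959) in AF76. Without *MAP1LC3A* these ratios were 0.935 and 0.981. Past the fold in the same direction in both follicles were 2 members upward and 1 downward, beside 4.59% and 6.04% of 9174 genes. *ATG4A*, a protease that trims Atg8 proteins, had 54.2 CPM against 30.02 CPM in AF75 and 45.5 against 28.5 CPM in AF76, 1.80 and 1.60 times. *LAMP2* had 287 against 163 CPM and 209 against 128 CPM, 1.76 and 1.63 times. *SQSTM1* had 407 against 762 CPM in AF75 (0.534) and 630 against 791 CPM in AF76 (0.797), so that in AF76 it passed the inverse fold of 0.8 narrowly, and no longer at a clustering resolution of 0.8 (0.8004) or with the members kept among the variable genes (0.808). Without integration *LAMP2* still passed, at 1.80 and 1.47 times, *RB1CC1* did too, at 2.44 and 1.39 times, but *ATG4A* (1.16) and *SQSTM1* (0.864) of AF76 did not.

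Other members shifted in cluster 1 of AF75 more than in cluster 1 of AF76. *RB1CC1* was at 2.25 times cluster 0 (2.18 to 2.31) in AF75 and 1.204 times (1.15 to 1.26) in AF76. *MAP1LC3A* was at 0.547 (0.538 to 0.556) and 0.877 (0.864 to 0.890), and *ATG12* at 0.606 and 0.940. In the sums by role, the ULK complex was at 1.64 and 1.12 times cluster 0 and the Atg8 family at 0.735 and 0.930. *RB1CC1* and *MAP1LC3A* held the most UMIs of these sums, and their other genes did not all shift alike. *ULK1* was at 0.842 and 1.04, *ULK2* at 0.790 and 0.898, *ATG13* at 1.12 and 1.12, and *ATG101* at 1.26 and 1.10. *MAP1LC3B* was at 0.996 and 1.04, *GABARAP* at 0.983 and 1.03, *GABARAPL1* at 0.731 and 0.877, and *GABARAPL2* at 0.842 and 0.908. No test compared the follicles.

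Cluster 0 itself could be divided into cluster 0a and cluster 0b, the latter led by *INSIG1*, *STARD4* and *SCD*, genes of sterol and lipid metabolism. The members summed to nearly the same level, with 0b at 0.98 times 0a in AF75 and 1.00 times in AF76. *ATG4A* and *LAMP2* were 2 members past the fold upward and 0 were downward, beside 3.48% and 2.2% of 8354 genes. *LAMP2* had 136 CPM in 0a and 191 CPM in 0b of AF75 (1.40 times) and 116 and 148 CPM in AF76 (1.27 times), and *ATG4A* was at 1.57 and 1.38 times.

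In the dividing cells of cluster 3 the members summed to 3181 CPM in AF75 against 3710 CPM in AF76, or 0.754 and 0.855 of cluster 0. Upward past the fold in both follicles were 3 members and downward 6, beside 10.5% and 11.7% of 9185 genes. *RB1CC1* (1.72 and 1.26 times), *ATG4A* (1.68 and 1.42) and *LAMP2* (1.75 and 1.32) were the higher ones. *MAP1LC3A* (0.419 and 0.691), *SQSTM1* (0.528 and 0.685), *GABARAPL2* (0.774 and 0.773), *ULK2* (0.631 and 0.608), *WIPI1* (0.667 and 0.785) and *ATG10* (0.747 and 0.777) were the lower ones. The AF76 interval of *WIPI1* (0.553 to 1.08) and both intervals of *ATG10* reached 1, and without integration *ATG4A* was the only higher member. *RB1CC1* did not pass with doublets removed, thinned or on 20 components either, and *ATG10* did not pass in these 3 settings. *WIPI1* did not pass thinned or without integration, and *GABARAPL2* not thinned. In cluster 4, with 0.802 and 0.797 of the cluster 0 sum, 1 member was higher and 1 lower, beside 8.2% and 7.48% of 9171 genes. *MAP1LC3A* had 490 CPM in AF75 and 552 CPM in AF76 there, 0.440 and 0.449 of cluster 0, and *SQSTM1* had 692 CPM in both. *AMBRA1* was at 1.45 and 1.28 times, with intervals that reached 1 (0.982 to 2.06 and 0.854 to 1.86), and with doublets removed it did not pass.

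Cluster 2, with 1 cell in AF75, had a pattern of its own. With clustering on 20 components it held 166 cells of AF75 beside 692 of AF76, and without integration 0 and 699. The 166 cells came from other clusters and left out the 1 cell of AF75, while the 692 held 99.7% of the AF76 cells of cluster 2. The leading genes of cluster 2 were *DEFB1*, *CCL26* and *CEMIP*. The granulosa list summed to 4911 CPM there against 26749 CPM in cluster 0 of AF76. Markers of smooth muscle had 261 CPM against 7.86 CPM, and immune markers 151 CPM against 18.1 CPM with 1 of the 10 at 0, so the cluster was left unnamed. Its cells were shallow, with a median of 6435 UMIs. Of 33 members 20 were higher than in cluster 0 of AF76 by the fold and 6 lower, but 51.5% and 21.5% of all 9335 genes were too. The median log2 ratio of the members was 0.50, against 0.35 over all these genes. The members summed to 4057 CPM, 0.935 times cluster 0, but to 1.19 times without *MAP1LC3A*.

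*OPTN*, *NBR1*, *LAMP1* and *LAMP2* stood high in cluster 2, while the cargo receptors together summed to 0.907 of cluster 0 (0.878 to 0.936). *OPTN*, a receptor for ubiquitinated cargo and mitochondria, had 251 CPM (2.75 times cluster 0, 2.59 to 2.93), *NBR1*, another ubiquitin-binding receptor, 123 CPM (2.58 times), *LAMP2* 347 CPM (2.72 times) and *LAMP1* 281 CPM (1.82 times). *ATG13* (2.79 times), *AMBRA1* (2.67), *ATG3* (2.16), *ULK1* (2.05) and *ATG14* (2.01) were at least doubled from low levels, none above 88.6 CPM. The lower members were *MAP1LC3A* with 349 CPM (0.285, 0.271 to 0.299), *SQSTM1* with 469 CPM (0.593), *GABARAPL2* with 191 CPM (0.755), *UVRAG* (0.514), *ATG4A* (0.369) and *ATG12* (0.363). The Atg8 family was divided, since *GABARAP* (664 CPM, 1.33 times) and *GABARAPL1* (175 CPM, 1.34 times) were higher, and *GABARAP* in place of *MAP1LC3A* was the most abundant member. *TFEB* had 12.4 CPM in cluster 2 against 0.888 CPM in cluster 0, from 60 and 71 UMIs. How much of the granulosa-type transcripts in cluster 2 came from free RNA was not tested.

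**Figure D4:**
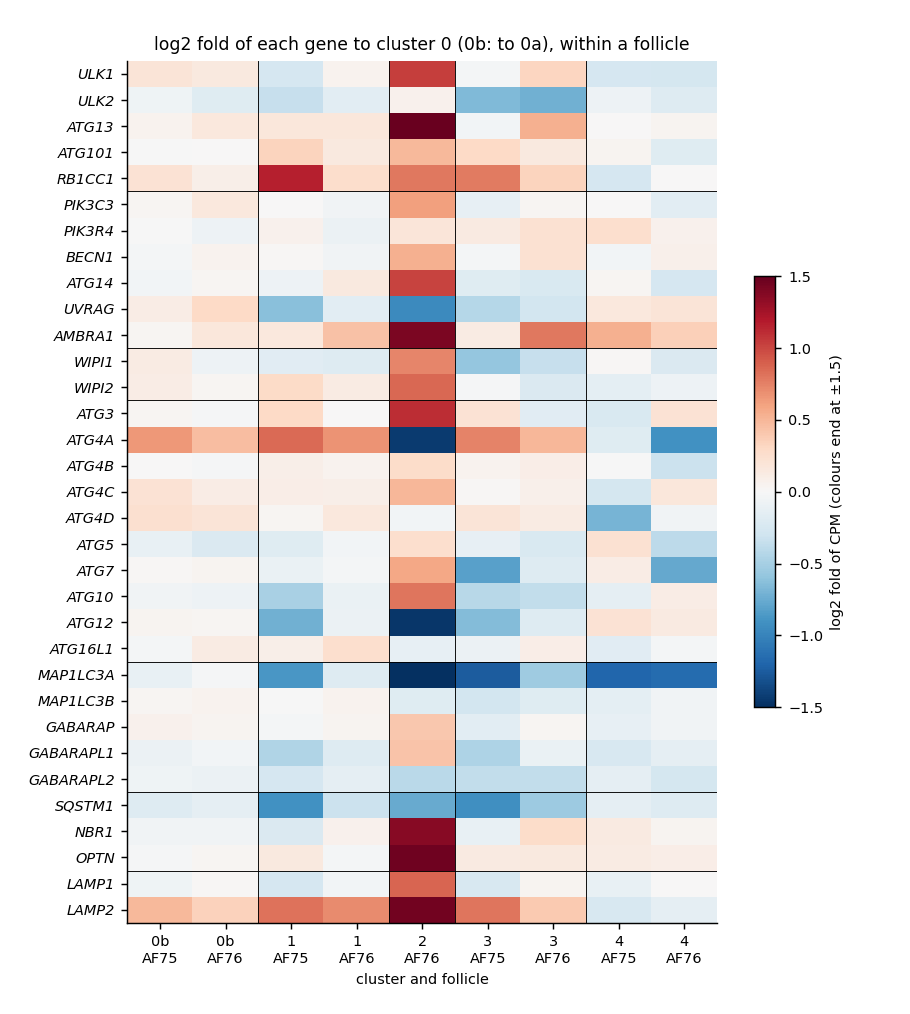
Log2 fold of CPM of the 33 autophagy genes with at least 200 UMIs, in each cluster against cluster 0 of the same follicle, and in cluster 0b against 0a. Red is higher and blue lower, colours end at ±1.5, and cluster 2 is drawn for AF76 alone. *LAMP2* is red in 0b and in clusters 1, 2 and 3, and *MAP1LC3A* is blue in clusters 1 to 4.

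Most members had a variance among the cells of cluster 0 close to what counting alone would give. At low means counting takes up most of the variance, so this does not show that cells were alike. Over cells thinned to 5000 UMIs (5971 of AF75 and 5541 of AF76), the variance of UMIs over their mean, which is near 1 for counting alone, had a median of 1.03 and 1.05 over 30 members with a mean of at least 0.05 UMIs. Over all 6925 genes it was 1.04 and 1.05. It was above 1.2 in both follicles for 4 members, or 13.3%, against 12.4% of all genes. These were *MAP1LC3A* (3.39 in AF75 and 4.01 in AF76), *SQSTM1* (1.51 and 1.60), *LAMP2* (1.35 and 1.34) and *UVRAG* (1.31 and 1.35). *GABARAP*, with a mean of 2.41 and 2.52 UMIs per cell, had 1.08 and 1.11, and *MAP1LC3B* 1.04 and 1.03. Pairwise Pearson's r of the 8 most abundant members over these cells ran from -0.0329 to 0.117 in AF75 and from -0.0406 to 0.143 in AF76. Counting error weakens r at so few UMIs per cell, and no r of other genes is given beside it. Whether these members vary together was therefore not tested. Cells of 1 library share depth and free RNA and are no replicates.

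**Figure D5:**
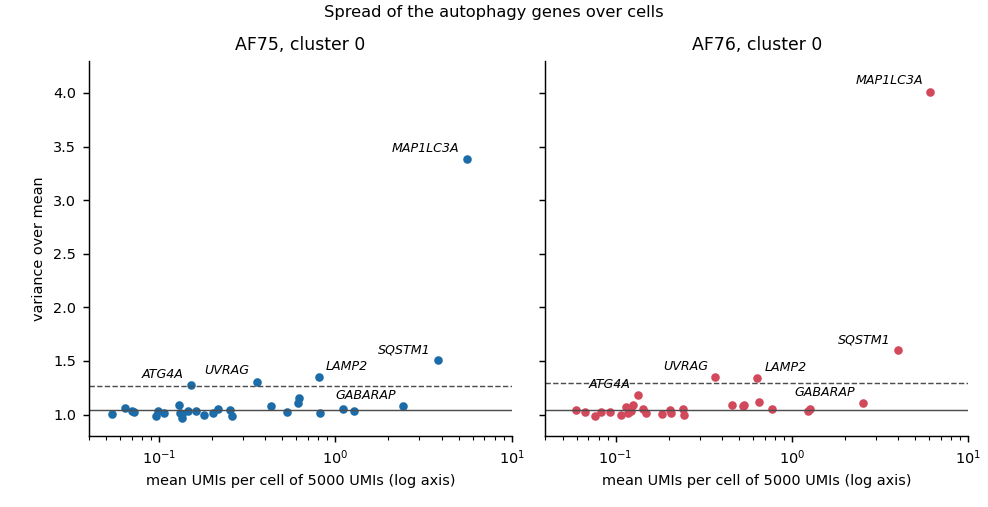
Variance over mean of UMIs across cells of cluster 0, each thinned to 5000 UMIs, against the mean UMIs per cell on a log axis, for autophagy genes with a mean of at least 0.05 in AF75 (left) and AF76 (right). The solid line is the median and the dashed line the 90th percentile over all genes. *MAP1LC3A* was highest at 3.39 and 4.01, followed by *SQSTM1* at 1.51 and 1.60. The ratio rises with the mean for the same relative spread, and these genes had the highest means.

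Barcodes outside the limits gave similar sums. In barcodes with under 2000 genes, with a median of 1303 UMIs in AF75 and 1180 in AF76, the members summed to 3847 and 4404 CPM, 0.977 and 1.03 times the cells. *LAMP1* (0.703 and 0.782 times) and *LAMP2* (0.688 and 0.720 times) were lower there in both follicles, and *GABARAP* was lower in AF75 (0.860) and higher in AF76 (1.22). In barcodes with 7% or more mitochondrial UMIs the sum was 0.934 and 0.902 times that of the cells, and *MAP1LC3A* 0.838 and 0.784 times. Their median mitochondrial share was 7.93% and 8.45%, against 2.58% and 2.96% in the cells. Mitochondrial UMIs are part of the divisor of CPM, so a larger share lowers the CPM of other genes. How much of the lower sums this made was not tested. Those with over 5000 genes summed to 3935 and 4261 CPM.

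Other genes of the pathway, 64 of 71 from 4 lists found by symbol, were set beside the members. In all cells none of 16 other autophagy genes passed the fold between follicles, and *VMP1*, a lipid scramblase of the endoplasmic reticulum, had 868 CPM in AF75 and 738 CPM in AF76. Of 12 genes of selective autophagy *CALCOCO2* (1.254) and *NCOA4* (1.27), receptors for bacteria and for ferritin, were higher in AF76. *RETREG1*, a receptor for the endoplasmic reticulum, had 4102 and 4407 CPM, above every member. Of 15 lysosome genes *CTSS* (1.43) and *NPC2* (1.62) were higher, and of 21 genes of upstream control *DDIT4* (1.27), *FOXO1* (1.85) and *MITF* (4.05) were higher and *SESN2* (0.753) lower. Among all 10049 genes with the minimum, 5.91% were higher and 8.48% lower by the fold.

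None of these 8 genes passed the fold in cluster 0, where *SESN2* was below the minimum and *ATG2A* and *PLEKHM1* alone did, both lower in AF76. Of all 9384 genes with the minimum there, 1.9% were higher and 6.88% lower. Several of the 8 genes were high in cluster 2, which held 1 cell of AF75. *MITF*, a relative of *TFEB*, had 281 CPM in cluster 2 against 5.76 CPM in cluster 0 of AF76, *FOXO1* 495 against 38.1 CPM, *NCOA4* 770 against 177 CPM, *NPC2* 221 against 36.5 CPM and *CTSS* 139 against 8.74 CPM. *RETREG1* was lower there, at 931 against 4681 CPM. In cluster 1, *SESN1* and *DDIT4*, inhibitors upstream of mTORC1, and the AMPK subunit *PRKAA2* were lower than in cluster 0 in both follicles. These were 3 of 20 genes of upstream control with the minimum, beside 6.04% of 9174 genes. *DDIT4* had 328 against 767 CPM in AF75 and 553 against 875 CPM in AF76.

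The promoters were searched for the E-box CACGTG, the core letters bound by *TFEB* and its relatives, and for the longer TCACGTGA, which contains it. Both read the same on either strand. In the 250 bases before the annotated gene start CACGTG occurred for 3 of the 36 listed genes (8.33%), against 6.40% of 19506 promoters, and TCACGTGA for 1 (2.78%), against 0.743%. The matches nearest to the start of *LAMP2* and *ATG5* and the longer match of *LAMP1* are shown on the strand of the gene, with CACGTG in capitals.
LAMP1: gcagcgcggcctCACGTGacgggcgccgcc
LAMP2: tctggcccccttCACGTGcggagattggct
ATG5: ggagtggcgggcCACGTG
They lie in Sscrofa11.1 at chr11:78600658-78600687 for *LAMP1*, with the E-box 148 bases before the gene start, chrX:98623967-98623996 for *LAMP2* (45 bases before) and chr1:72520403-72520420 for *ATG5* (6 bases before). *LAMP1* held 2 further matches, 177 and 248 bases before its start. The other members, among them *RB1CC1*, *MAP1LC3A* and *SQSTM1*, held none in this window. A match is a description of letters, and binding was not measured.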

How the data were processed

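The deposited data were UMI counts per gene and barcode on Sscrofa11.1, with 1 matrix per follicle and no normalization. They were made by the authors with Cell Ranger (per the labels), version 6.0.2 per the header of each matrix. The genes and gene lists were chosen with earlier results of these data known. AF75 and AF76 were matched to follicles 1 and 2 through the deposited names. Columns of other samples numbered 0. Counts of a gene were summed over cells and divided by the summed UMIs of all genes (CPM). Intervals are exact Poisson for a level, exact conditional for a ratio and Clopper-Pearson for a share, at 95%, and cover counting error only. With 1 library per follicle no test was run. A gene was named where its CPM ratio was 5:4 or more, or 4:5 or less, with at least 200 UMIs on one side, and between clusters only where both follicles did so in the same direction. Cells were clustered with Seurat anchors on 40 components, the members and the other pathway genes left out of the variable genes, at a resolution of 0.22, and cluster 0 was divided at 0.18. Doublets were scored and kept, and removed as an alternative. The calling of genes by fold was tested on simulated data with counting error alone and changes larger than 5:4. It therefore did not cover differences between follicles or ratios near the limit. Python 3.11.15 and R 4.3.3 with Seurat 5.3.0 were used. Reads were not analysed here.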

Additional observations from a re-analysis of the deposited data

Results flagged for a closer look

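The summed conjugation genes lay on opposite sides of cluster 0 in the follicles. In cluster 1 of AF75 they stood at 0.969 of cluster 0 (0.945 to 0.993), and in cluster 1 of AF76 at 1.06 (1.03 to 1.09). Each single gene of the sum had a ratio on the same side of 1 in both follicles. *ATG12*, with the most UMIs among them, was at 0.606 and 0.940, and *ATG4A* at 1.80 and 1.60. The cells of cluster 1 in AF76 also depended on the integration of the follicles. The sums were set apart because every library moved its own way, with 1 library each, and the difference was not tested.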

How the results depend on the processing

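No paired analysis was possible because each follicle gave 1 library and no test was run. Of the alternatives for sums and counts 138 stayed within the margin, 44 moved and 1 reversed, and for single members 220 stayed and 25 moved. The counts within clusters were recomputed under alternatives chosen after seeing the data. Where a value moved, the cause was not tested.

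The log2 ratio of the summed members in AF76 to AF75 over all cells (0.11) was 0.13 with library size taken without mitochondrial and ribosomal protein genes, 0.048 without *MAP1LC3A* and 0.12 over all barcodes, and in cluster 0 (0.04) it was 0.052 and 0.0048 under the first pair of these. Without *MAP1LC3A* the log2 ratios to cluster 0 were -0.10, -0.19 and -0.10 in clusters 1, 3 and 4 of AF75 and -0.027, 0.25, -0.12 and -0.10 in clusters 1, 2, 3 and 4 of AF76, so that cluster 2 reversed from -0.10. In cluster 1 of AF75 (-0.26) the other values were -0.27 with doublets removed, -0.28 with the other library size, -0.28 thinned, -0.29 without integration and -0.28 with 20 components. In cluster 1 of AF76 (-0.07) they were -0.084 with the other library size, -0.053 without integration and -0.094 with 20 components. Cluster 3 of AF75 stood at -0.43 with doublets removed and cluster 2 of AF76 at -0.053 with the other library size.

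Over all cells the members higher in AF76 numbered 1 (*ATG14*) with the other library size, the mean of per-cell CPM, 500 to 6000 genes, a mitochondrial limit of 10% or all barcodes, 1 (*WIPI1*) thinned, and 2 (*TFEB* and *DAPK2*) with no minimum, while *RB1CC1* and *LAMP2* were lower in each, and *ATG4A* too with the mean of per-cell CPM, thinned, and with 500 to 6000 genes. In cluster 0 the lower members numbered 2 with doublets removed, 3 thinned, 0 without integration, 0 with 20 components and 2 with the members kept among the variable genes. In cluster 1, 14 were higher in AF76 without integration and 5 lower with 20 components. Against cluster 0, cluster 1 had 3 lower members without integration, *ATG10*, *ATG12* and *MAP1LC3A*, with *SQSTM1* not among them. It had 0 lower at a resolution of 0.8 and 0 with the members kept, and cluster 3 had 1 higher without integration. Cluster 4 had 0 higher with doublets removed, without integration or with the members kept, and 3 lower thinned and 2 with the members kept. No share of all genes is given for these alternatives, so a change of the members cannot be told from one of all genes.

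Depth limits *TFEB*, *DAPK2* and the smaller clusters, where intervals were wide. A library and a follicle cannot be told apart here.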
